A study of Mus musculus with 6 samples.

Results

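Mitochondrial β-oxidation was described through the 10 enzymes of its spiral, namely *Acadvl*, *Acadl*, *Acadm*, *Acads*, *Hadha*, *Hadhb*, *Echs1*, *Hadh*, *Acaa2* and *Eci1*. They were taken by gene symbol for their place in the pathway, with earlier results of these data known. The study had already reported *Acadl* and *Hadhb* as raised with stimulation. Each had 1 probe set, so they stood for 10 of the 22206 probe sets and 10 of the 19505 genes with a symbol. The samples were triceps muscles of male senescence-accelerated (SAMP-10) mice, 1 Affymetrix Clariom S array per mouse. The u40Hz-stimulation group held 3 mice (mice 4, 10 and 11) that received unmodulated 40 Hz vibration and inaudible low-frequency sound around the clock for 5 weeks, and the control group held 3 mice (mice 1, 6 and 8) without stimulation. All 6 mice were of the same strain and on the same normal diet, and the sample labels give no age. The labels and the methods name the triceps, while 1 passage of the study names the biceps. SAMP-10 is a strain bred for early ageing, and whole muscle holds fibres of several types with vessels, connective tissue and fat, so that more cells of a type and more RNA per cell cannot be told apart. The authors normalized the arrays, and the values are log2 signals, in which a step of 1 is a doubling.

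In the spiral, a fatty acid bound to coenzyme A is shortened from one end in repeated rounds. Each round has an oxidation by an acyl-CoA dehydrogenase, a hydration, an oxidation of the hydroxyl group and a cleavage by a thiolase that releases acetyl-CoA. The dehydrogenases divide the work by the length of the chain, from very long (*Acadvl*) over long (*Acadl*) and medium (*Acadm*) to short (*Acads*). For long chains, the later steps are done by the trifunctional protein of the inner membrane, built from *Hadha* and *Hadhb*. For shorter chains, they are done in the matrix by *Echs1*, *Hadh* and *Acaa2*. *Eci1* moves double bonds so that unsaturated fatty acids can enter the spiral. Slow and oxidative muscle fibres, heart and brown fat are known for high levels of these enzymes.

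Each of the 10 enzymes had a higher mean with u40Hz stimulation, and the log2 fold changes (u40Hz minus control) ran from 0.46 in *Hadh* to 1.37 in *Acaa2*, with a median of 0.73. The median over all probe sets was 0.01, and 50.9% of all probe sets had a higher mean with stimulation. None of the 10 passed an adjusted p under 0.05 in limma, a linear model whose estimate of the spread draws on every probe set, and neither did any of the 22206 probe sets (0%). At an unadjusted p under 0.05 from limma, 5 of the 10 were higher (*Acadl*, *Acadm*, *Hadha*, *Hadhb* and *Acaa2*) and 0 were lower, against 3.86% higher and 3.15% lower of all probe sets. In 0 of the 10 were the groups free of overlap, against 6.4% of all probe sets that did not overlap with stimulation higher. In each of the 10, control mouse 1 lay above u40Hz mouse 10. Of the 9 pairs that can be formed from a stimulated and a control mouse, the stimulated mouse was higher in 7 or 8 for every enzyme, a level reached by 22.7% of all probe sets.

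**Figure D1:**
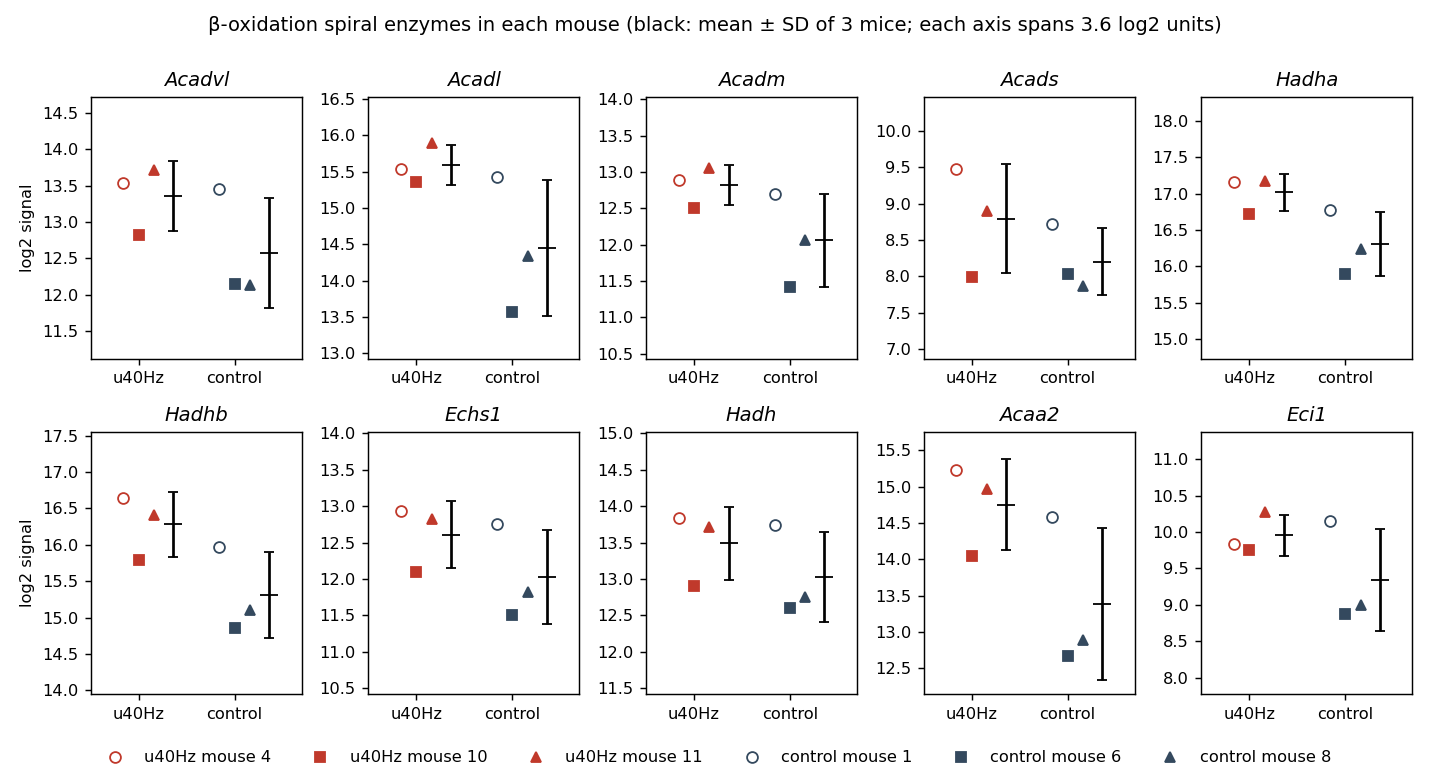
Log2 signal of each spiral enzyme (one panel per gene) in the 3 u40Hz mice (red, left) and the 3 control mice (dark blue, right), with the mean and SD of each group in black. Control mouse 1 (open dark circle) lies among the stimulated mice in every panel, and control mice 6 and 8 lie lowest in all panels but that of *Acads*, where u40Hz mouse 10 (7.99) lies between them.

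Among the acyl-CoA dehydrogenases, the largest difference was that of *Acadl*, the long-chain enzyme. Its log2 signal was 15.53, 15.36 and 15.89 in u40Hz mice 4, 10 and 11, against 15.43, 13.57 and 14.34 in control mice 1, 6 and 8. The stimulated mice lay close together (15.59 ± 0.27, SD, n = 3) and the control mice far apart (14.45 ± 0.93, SD, n = 3), and the overlap was by 0.07, the gap from control mouse 1 down to u40Hz mouse 10. The log2 fold change of *Acadl* was 1.15 (SE 0.42, 95% interval 0.18 to 2.11), or 2.21-fold (unadjusted p = 0.025, adjusted p = 0.696 from limma). *Acadm*, which takes medium chains, was at 12.89, 12.51 and 13.05 in u40Hz mice 4, 10 and 11, against 12.70, 11.42 and 12.07 in control mice 1, 6 and 8. It followed the order of *Acadl* across the mice, with control mouse 6 lowest and u40Hz mouse 11 highest. Its log2 fold change was 0.75 (SE 0.32, 95% interval 0.01 to 1.5, unadjusted p = 0.0473 and adjusted p = 0.711 from limma).

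*Acadvl*, the membrane-bound enzyme that starts the oxidation of very long chains, was at 13.54, 12.82 and 13.72 in u40Hz mice 4, 10 and 11, against 13.45, 12.15 and 12.13 in control mice 1, 6 and 8. Control mice 6 and 8 were nearly equal, and control mouse 1 was 1.31 above their mean. The log2 fold change of *Acadvl* was 0.78 (SE 0.39, 95% interval -0.12 to 1.68, unadjusted p = 0.0796 and adjusted p = 0.717 from limma). *Acads*, the short-chain enzyme, was at 9.48, 7.99 and 8.90 in u40Hz mice 4, 10 and 11, against 8.72, 8.03 and 7.86 in control mice 1, 6 and 8. It was the only one of the 10 in which u40Hz mouse 10 lay below a control mouse other than mouse 1. Its spread was wider among the stimulated mice (SD 0.75, n = 3) than among the control mice (SD 0.46, n = 3). Its log2 fold change was 0.59 (SE 0.39, 95% interval -0.30 to 1.47, unadjusted p = 0.167 and adjusted p = 0.762 from limma).

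The subunits of the trifunctional protein followed much the same order of mice. *Hadha*, whose product hydrates long-chain enoyl-CoA and oxidizes the resulting hydroxyl group, was at 17.16, 16.72 and 17.17 in u40Hz mice 4, 10 and 11, against 16.78, 15.90 and 16.24 in control mice 1, 6 and 8. The overlap was the narrowest of the 10, with control mouse 1 only 0.06 above u40Hz mouse 10. Its log2 fold change was 0.71 (SE 0.27, 95% interval 0.10 to 1.32, unadjusted p = 0.0267 and adjusted p = 0.704 from limma). *Hadhb*, the thiolase subunit, was at 16.65, 15.79 and 16.41 in u40Hz mice 4, 10 and 11, against 15.97, 14.85 and 15.11 in control mice 1, 6 and 8. Its log2 fold change was 0.97 (SE 0.34, 95% interval 0.20 to 1.74, or 1.96-fold), and its unadjusted p from limma, 0.0193, was the smallest of the 10 (adjusted p = 0.695). Across the 6 mice *Hadha* and *Hadhb* had a Pearson correlation of 0.99, given as a description of arrays of one tissue, with no test.

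Of the matrix enzymes, *Acaa2*, the thiolase of shorter chains, showed the largest difference of all 10. It was at 15.23, 14.04 and 14.97 in u40Hz mice 4, 10 and 11, against 14.58, 12.67 and 12.89 in control mice 1, 6 and 8. Both groups were widely spread, with a range of 1.19 with stimulation and of 1.91 in the control group. The log2 fold change of *Acaa2* was 1.37 (SE 0.51, 95% interval 0.20 to 2.54), or 2.58-fold (unadjusted p = 0.0271, adjusted p = 0.704 from limma). *Echs1*, the short-chain hydratase, was at 12.93, 12.09 and 12.82 in u40Hz mice 4, 10 and 11, against 12.75, 11.51 and 11.82 in control mice 1, 6 and 8. *Hadh*, which oxidizes short- and medium-chain hydroxyacyl-CoA, was at 13.84, 12.91 and 13.72 in u40Hz mice 4, 10 and 11, against 13.74, 12.60 and 12.75 in control mice 1, 6 and 8. In both, u40Hz mouse 10 lay nearer to control mice 6 and 8 than to the other stimulated mice. Their log2 fold changes were 0.59 for *Echs1* (SE 0.36, 95% interval -0.23 to 1.40, unadjusted p = 0.137) and 0.46 for *Hadh* (SE 0.36, 95% interval -0.36 to 1.28, unadjusted p = 0.235), with adjusted p-values of 0.748 and 0.799 from limma. *Eci1*, the isomerase, was at 9.84, 9.75 and 10.27 in u40Hz mice 4, 10 and 11, against 10.15, 8.88 and 9.0 in control mice 1, 6 and 8. Here control mouse 1 was above both u40Hz mouse 4 and u40Hz mouse 10. The log2 fold change of *Eci1* was 0.61 (SE 0.34, 95% interval -0.18 to 1.40, unadjusted p = 0.112 and adjusted p = 0.737 from limma).

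**Figure D2:**
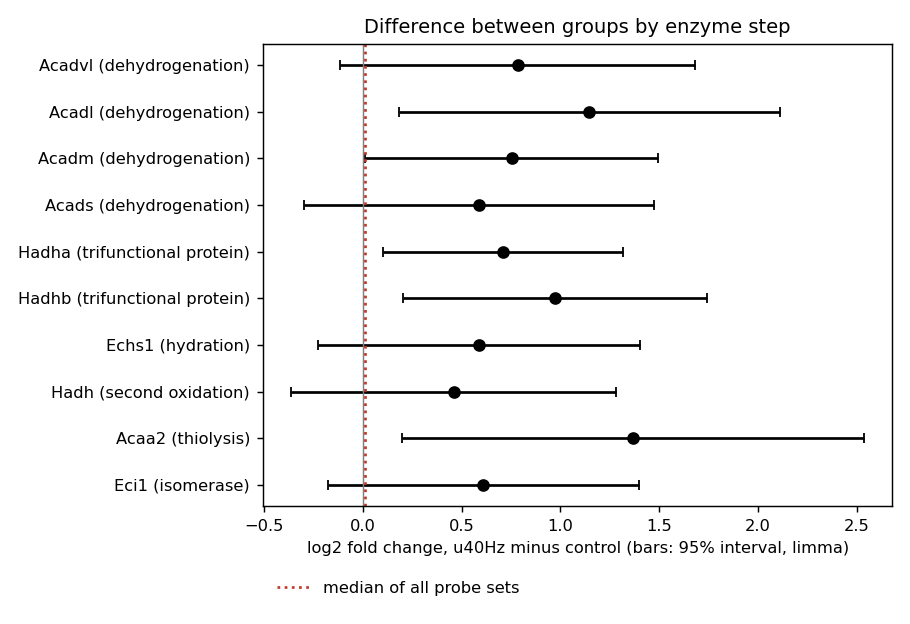
Log2 fold change (u40Hz minus control) of each spiral enzyme, ordered by step of the spiral and length of the chain, with the 95% interval from limma. All 10 points lie right of 0, and the intervals of *Acadl*, *Acadm*, *Hadha*, *Hadhb* and *Acaa2* do not reach 0, before any adjustment for the number of probe sets.

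The sequence before the start of each gene was read from RefSeq (mouse build GRCm38.p6), for 9 of the 10 enzymes, without *Acaa2*. The 250 bases before the start are given for *Hadhb* and *Acadl*, the spiral enzymes with the smallest unadjusted p among these, and for *Acadm*, *Acadvl* and *Echs1*, which hold the letters that nuclear receptors read. *Hadha* and *Hadhb* are transcribed away from each other, with 272 bases between their starts, so the stretch printed for *Hadhb* (chr5:30155003-30155252, + strand) shares most of its bases with the upstream stretch of *Hadha*, which is read from the other strand. The others are chr1:66863310-66863559 (- strand) for *Acadl*, chr3:153944644-153944893 (- strand) for *Acadm*, chr11:70015429-70015678 (- strand) for *Acadvl* and chr7:140116422-140116671 (- strand) for *Echs1*. Capitals mark AGGTCA, the core letters of nuclear receptor sites, and GGGCGG, the GC box, each on either strand.
Hadhb: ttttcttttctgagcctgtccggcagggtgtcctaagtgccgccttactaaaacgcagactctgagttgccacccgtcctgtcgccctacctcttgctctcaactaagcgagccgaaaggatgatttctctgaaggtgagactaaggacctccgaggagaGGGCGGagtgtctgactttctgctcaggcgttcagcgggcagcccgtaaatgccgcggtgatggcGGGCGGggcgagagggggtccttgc
Acadl: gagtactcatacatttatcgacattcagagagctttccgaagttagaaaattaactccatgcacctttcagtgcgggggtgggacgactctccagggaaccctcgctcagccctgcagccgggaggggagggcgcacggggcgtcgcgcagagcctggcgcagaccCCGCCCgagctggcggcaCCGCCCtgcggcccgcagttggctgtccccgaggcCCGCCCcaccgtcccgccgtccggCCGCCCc
Acadm: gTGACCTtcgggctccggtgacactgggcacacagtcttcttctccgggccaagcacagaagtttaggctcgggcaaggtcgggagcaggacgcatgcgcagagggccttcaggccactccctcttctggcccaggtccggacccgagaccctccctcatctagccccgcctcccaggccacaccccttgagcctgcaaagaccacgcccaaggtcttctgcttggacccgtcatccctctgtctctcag
Acadvl: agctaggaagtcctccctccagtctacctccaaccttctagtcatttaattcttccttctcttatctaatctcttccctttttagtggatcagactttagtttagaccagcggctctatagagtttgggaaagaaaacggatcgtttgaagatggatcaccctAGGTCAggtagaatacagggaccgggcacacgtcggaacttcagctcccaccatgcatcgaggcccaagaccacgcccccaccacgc
Echs1: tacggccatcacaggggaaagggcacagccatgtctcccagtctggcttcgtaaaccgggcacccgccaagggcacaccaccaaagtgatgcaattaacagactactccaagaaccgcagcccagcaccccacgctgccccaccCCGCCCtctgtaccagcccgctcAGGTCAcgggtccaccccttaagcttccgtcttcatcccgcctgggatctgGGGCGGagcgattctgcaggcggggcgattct

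AGGTCA was found in 3 of the 9 upstream stretches, those of *Acadm*, *Acadvl* and *Echs1*, and in 14.0% of the 32851 stretches of the same length in the RefSeq table. The longer ERR element TCAAGGTCA, which contains AGGTCA, was found in 0 of 9 and in 0.387% of all, and the E-box CACGTG, which reads the same on both strands, in 0 of 9 and in 6.02%. GGGCGG was found in 7 of 9, all but *Acadvl* and *Acadm*, and in 32.7% of all. The only match of *Hadha* lies on the same bases of the chromosome as a match of *Hadhb*, so these are not separate matches. The share of G and C in the 9 stretches ran from 49.6% to 68.0%, with a median of 52.4% over all stretches. These are matches of letters in a short window and were not tested as sites.

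An exact permutation test of each enzyme (two-sided, all regroupings of 3 mice against 3) gave p = 0.2 for 7 enzymes and p = 0.3 for *Acads*, *Hadh* and *Eci1*. With 3 mice a group this test cannot go below 0.1. By length of chain, the 4 enzymes of long and very long chains (*Acadvl*, *Acadl*, *Hadha* and *Hadhb*) had a median log2 fold change of 0.88, from 0.71 to 1.15, and the 5 enzymes of medium and short chains (*Acadm*, *Acads*, *Echs1*, *Hadh* and *Acaa2*) had a median of 0.59, from 0.46 to 1.37. The ranges overlapped, as *Acadm* and *Acaa2* lay above *Hadha*, and the difference between these classes was not tested. Within each mouse, after each gene was centred on its own mean over the 6 mice, the long-chain mean minus the medium- and short-chain mean was -0.15, 0.27 and 0.11 in u40Hz mice 4, 10 and 11, against -0.09, -0.12 and -0.02 in control mice 1, 6 and 8. The mice of the u40Hz-stimulation group thus lay on both sides of those of the control group.

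The order of the mice was much the same in all enzymes. Averaged over the 10 centred enzymes, u40Hz mice 4, 10 and 11 were at 0.64, -0.07 and 0.62, against 0.36, -0.91 and -0.65 in control mice 1, 6 and 8. Control mouse 1 was above both other control mice in all 10 enzymes, by 0.71 (*Hadha*) to 1.8 (*Acaa2*) over their mean. The highest value was in u40Hz mouse 4 for 5 enzymes and in u40Hz mouse 11 for the other 5, and the lowest was in control mouse 6 for 8 and in control mouse 8 for 2. Each of 9 had a Pearson correlation above 0.9 over the 6 mice with the mean of the rest, and *Acads* had 0.84. Over the 45 pairs of enzymes the correlation ran from 0.67 (*Acadl* with *Acads*) to 0.99 (*Hadhb* with *Acaa2*), with a median of 0.93. With the group means taken away, the correlation with the rest ran from 0.78 (*Acads*) to 0.99 (*Echs1*), so the shared order lay also within the groups. These are descriptions over 6 arrays of one tissue, with no test.

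**Figure D3:**
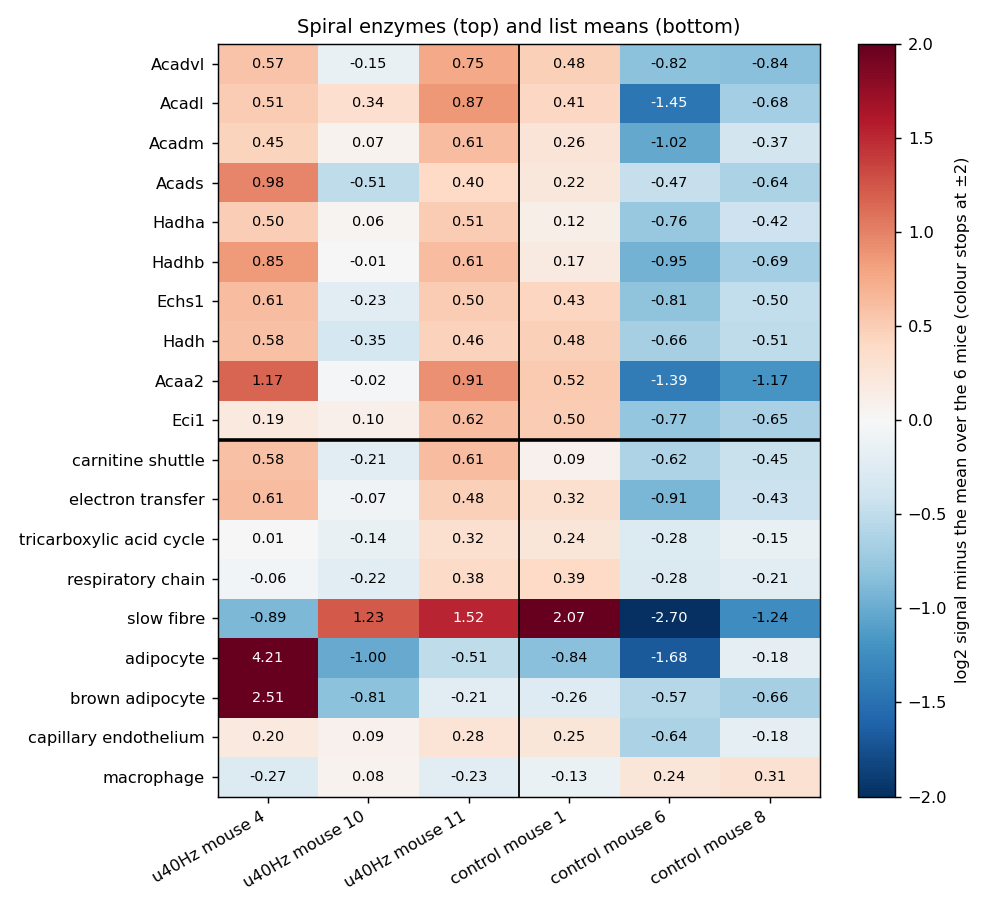
Log2 signal of each spiral enzyme (upper rows) and mean of other gene lists (lower rows) in each mouse, each gene centred on its own mean over the 6 mice, with u40Hz mice left of control mice. The enzymes are high in u40Hz mice 4 and 11 and in control mouse 1 and low in control mice 6 and 8, while adipocyte genes (4.21) stand out in u40Hz mouse 4 and slow fibre genes (2.07) are highest in control mouse 1.

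Single mice set how many enzymes passed an unadjusted p under 0.05 in limma. Without control mouse 1, 9 of the 10 passed (4.5% of all probe sets were then higher at that p) and 9 had no overlap between the groups (13.1% of all probe sets), all but *Acads*. Without u40Hz mouse 10, 7 passed (4.61%) and 8 had no overlap (12.9%). Control mouse 1 lay above u40Hz mouse 10 in all 10 enzymes, so leaving out either mouse favours a lack of overlap in advance. Without u40Hz mouse 4, only *Acadl* passed (3.33%). Without u40Hz mouse 11 (3.82%), control mouse 6 (2.47%) or control mouse 8 (2.65%), 0 of the 10 passed. All 10 kept a higher mean in each of these 6 fits, with a median log2 fold change of 0.50 without control mouse 6 and of 1.04 without control mouse 1. *Acadl* ran from 0.71 to 1.64 and passed in 3 of 6 fits, *Hadhb* from 0.74 to 1.3 in 2 of 6, and *Acaa2* from 1.01 to 1.97 in 2 of 6. *Acads* was at 0.24 without u40Hz mouse 4 and at 0.99 without u40Hz mouse 10, and *Hadh* was at 0.25 without control mouse 6. With all 6 mice, the count at an unadjusted p under 0.05 was 0 of 10 without moderation of the variance (3.17% of all probe sets), 6 with array weights (4.18%), 4 after dim probe sets were left out (3.46% of those kept) and 5 after quantile normalization (3.22%), which left 1 enzyme without overlap (5.78%).

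**Figure D4:**
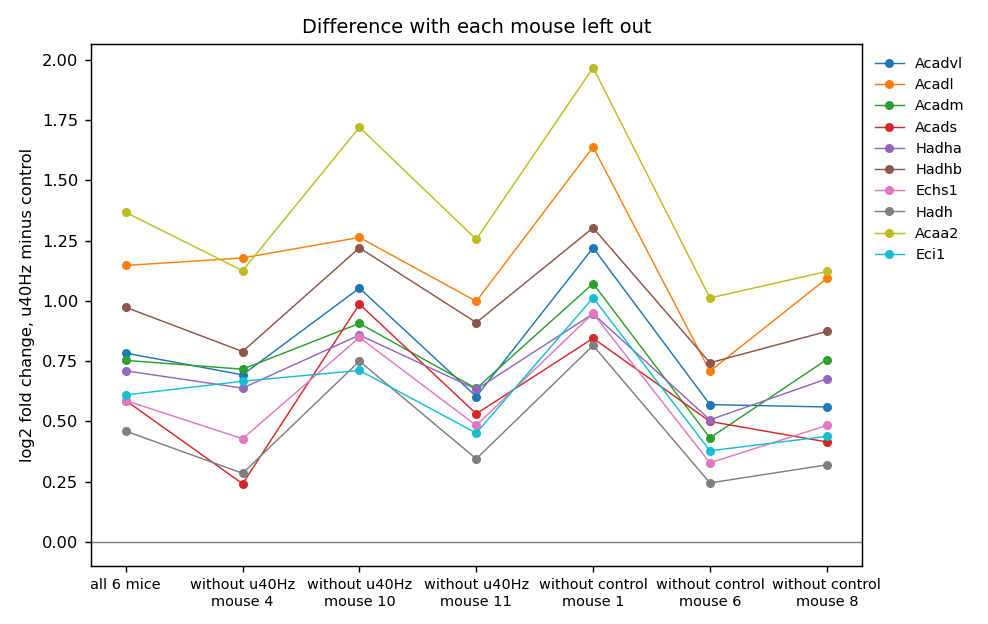
Log2 fold change (u40Hz minus control) of each spiral enzyme with all 6 mice and with each mouse left out in turn. No line crosses 0, and all 10 enzymes move up when control mouse 1 or u40Hz mouse 10 is left out and down when control mouse 6 is.

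Markers of fibre type and of fat differed between the same mice. Muscle itself was strongly present, with the mean log2 signal of 8 skeletal muscle genes between 18.07 and 18.32 with stimulation and between 18.13 and 18.38 in the control group, and *Acta1*, the muscle actin, at the ceiling of the scale (19.93) in all 6 mice. Of 12 slow fibre genes, 11 had a higher mean with stimulation (50.9% of all probe sets). None of the 12 had an unadjusted p under 0.05 in limma, and none was free of overlap between the groups. The mean log2 signal of the 12 was 9.46, 11.59 and 11.88 in u40Hz mice 4, 10 and 11, against 12.43, 7.66 and 9.12 in control mice 1, 6 and 8. *Myh7*, which encodes the myosin of slow fibres, was at 11.17, 14.99 and 15.03 in the stimulated mice, against 15.70, 7.99 and 10.77 in the control mice. Control mouse 1, high in the spiral enzymes, was thus the highest in slow fibre genes, while u40Hz mouse 4, also high in the enzymes, was not. Of 12 adipocyte genes, 11 had a higher mean (50.9% of all probe sets). At an unadjusted p under 0.05 in limma 1 of the 12 was higher (3.86%), and none was free of overlap. The mean log2 signal of the 12 was 11.86, 6.65 and 7.14 in u40Hz mice 4, 10 and 11, against 6.81, 5.97 and 7.46 in control mice 1, 6 and 8. *Adipoq*, the adipocyte hormone adiponectin, was at 15.16, 6.58 and 7.01 in the stimulated mice, against 6.96, 6.32 and 9.66 in the control mice. *Ucp1*, which defines brown fat, was at 15.62 in u40Hz mouse 4 and between 2.61 and 4.16 in the other 5 mice, below the median probe set of these arrays (5.57). The mean of 10 brown adipocyte genes was 9.04, 5.71 and 6.32 in u40Hz mice 4, 10 and 11, against 6.27, 5.95 and 5.87 in control mice 1, 6 and 8. Of the 10, 8 had a higher mean with stimulation and 2 a lower mean. Besides *Ucp1*, u40Hz mouse 4 stood far above the other mice in *Cidea* (12.40), also in the adipocyte list, and *Elovl3* (11.28). In *Dio2*, *Ppara*, *Cox7a1*, *Zic1*, *Lhx8*, *Prdm16* and *Ebf2* it lay within the range of the other mice or close above it. Brown fat expresses the spiral enzymes as well. The part of fibre type and of fat in the values of the spiral enzymes was not tested. Without u40Hz mouse 4 the median log2 fold change of the 10 enzymes was 0.68, against 0.73 with all mice. When each mouse's slow fibre mean was added to the fit as a covariate, 2 of the 10 enzymes (*Acadl* and *Hadhb*) had an unadjusted p under 0.05 in limma (3.54% of all probe sets) and 2 of the 10 were free of overlap after the covariate's part was taken away (10.6%), with a median log2 fold change of 0.53 over the 10. The adipocyte mean in its place gave 0 of 10 (3.14%) and a median of 0.64, and both together gave 0 of 10 (2.51%), 2 of 10 free of overlap (19%) and a median of 0.17, with *Acads*, *Echs1* and *Hadh* turned to -0.023, -0.076 and -0.18. Without control mouse 1 and u40Hz mouse 4, which leaves 2 mice a group, 8 of 10 passed (4.73%), 9 of 10 had no overlap (19.9%) and the median was 1.05. That choice, like the use of both covariates, was made after seeing the data. As said above, leaving out control mouse 1 favours a lack of overlap in advance.

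The steps that lead into the spiral and out of it were compared by their counts. Of 6 genes of the carnitine shuttle, which carries long chains into the mitochondria, all 6 had a higher mean with stimulation, 3 were higher at an unadjusted p under 0.05 in limma and the median log2 fold change was 0.83, against 50.9% and 3.86% of all probe sets and a median of 0.01. The carnitine transporter *Slc22a5* was at 6.63, 6.53 and 7.32 in u40Hz mice 4, 10 and 11, against 6.36, 5.73 and 5.89 in control mice 1, 6 and 8, without overlap (log2 fold change 0.83, SE 0.27, unadjusted p = 0.0149 and adjusted p = 0.695 from limma). On the log2 scale, the carrier *Slc25a20* was higher by 1.03, *Cpt1a*, an outer-membrane transferase, by 0.82 and the inner-membrane transferase *Cpt2* by 0.87. Limma gave these unadjusted p = 0.0348, 0.0356 and 0.124, and adjusted p-values of 0.711, 0.711 and 0.746. *Cpt1b*, the other outer-membrane transferase of the list, was higher by only 0.32, with overlap (unadjusted p = 0.173 from limma). Its signals, between 13.64 and 14.39, lay far above those of *Cpt1a* (5.6 to 7.38). The last gene of the list, *Crat*, was higher by 0.07. The electrons of the dehydrogenases pass to the respiratory chain through *Etfa*, *Etfb* and *Etfdh*, of which *Etfb* was not among the measured genes. *Etfa* and *Etfdh* had log2 fold changes of 0.63 (unadjusted p = 0.107) and 0.73 (unadjusted p = 0.0505), with adjusted p-values of 0.732 and 0.711 from limma. Across the 6 mice the mean of *Etfa* and *Etfdh* followed that of the spiral enzymes with a Pearson correlation of 0.99, and the carnitine shuttle with 0.96.

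Of 15 auxiliary genes of mitochondrial β-oxidation, 13 were higher in the mean and 2 lower, the median log2 fold change was 0.33 and 2 were at an unadjusted p under 0.05, both higher (3.86% of all probe sets). These were *Ech1*, which isomerizes dienoyl-CoA, at 0.84 (unadjusted p = 0.0317), and the dehydrogenase relative *Acad12* at 0.44 (unadjusted p = 0.0488), with adjusted p-values of 0.707 and 0.711 from limma. *Eci2*, a relative of *Eci1*, was at 0.53 and the thioesterase *Acot2* at 0.46. The acyl-CoA dehydrogenases of amino acid breakdown offered a comparison within the enzyme family. The mean of all 4 was higher, by 0.40 in the median. *Acad8*, of valine breakdown, had a log2 fold change of 0.69 (SE 0.24, unadjusted p = 0.0182 and adjusted p = 0.695 from limma) and did not overlap between the groups. *Acadsb*, of isoleucine breakdown, was at 0.46, also without overlap, and *Gcdh* and *Ivd*, of lysine and leucine breakdown, were at 0.34 and 0.19.

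Further along, the medians were nearer to 0. Of 15 tricarboxylic acid cycle genes, which burn the acetyl-CoA that the spiral releases, 11 were higher in the mean and 4 lower, the median log2 fold change was 0.12 and 0 were at an unadjusted p under 0.05 in limma. Of 21 respiratory chain genes, 13 were higher in the mean and 8 lower, with a median of 0.12 and also 0 at that p. Across the mice, the respiratory chain mean was 15.41, 15.24 and 15.85 in u40Hz mice 4, 10 and 11, against 15.86, 15.18 and 15.25 in control mice 1, 6 and 8. In u40Hz mouse 4 it lay near control mice 6 and 8, whereas the spiral enzymes of that mouse were among the highest. Of 10 glycolytic genes, 8 had a lower mean, 1 a higher mean and 1 an equal mean, with a median of -0.18. The equal one, the aldolase *Aldoa*, stood at the ceiling of the scale (19.93) in all 6 mice, where no difference can be read, and *Gapdh* lay close below it or at it, between 19.66 and 19.89 with stimulation and between 19.89 and 19.93 in the control group. At an unadjusted p under 0.05 in limma, 2 of the 10 were lower and 0 higher (3.15% and 3.86% of all probe sets). In 4 of the 10 the groups did not overlap, with stimulation lower, as in 1200 of the 19505 genes with a symbol. *Ldha*, lactate dehydrogenase, and *Tpi1*, triosephosphate isomerase, were at -0.56 (unadjusted p = 0.017 from limma) and -0.58 (unadjusted p = 0.0222). The others without overlap, *Pgam2* and *Eno3*, were at -0.36 and -0.31 (unadjusted p = 0.0774 and 0.13 from limma). The difference between these lists and the spiral enzymes was not tested.

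**Figure D5:**
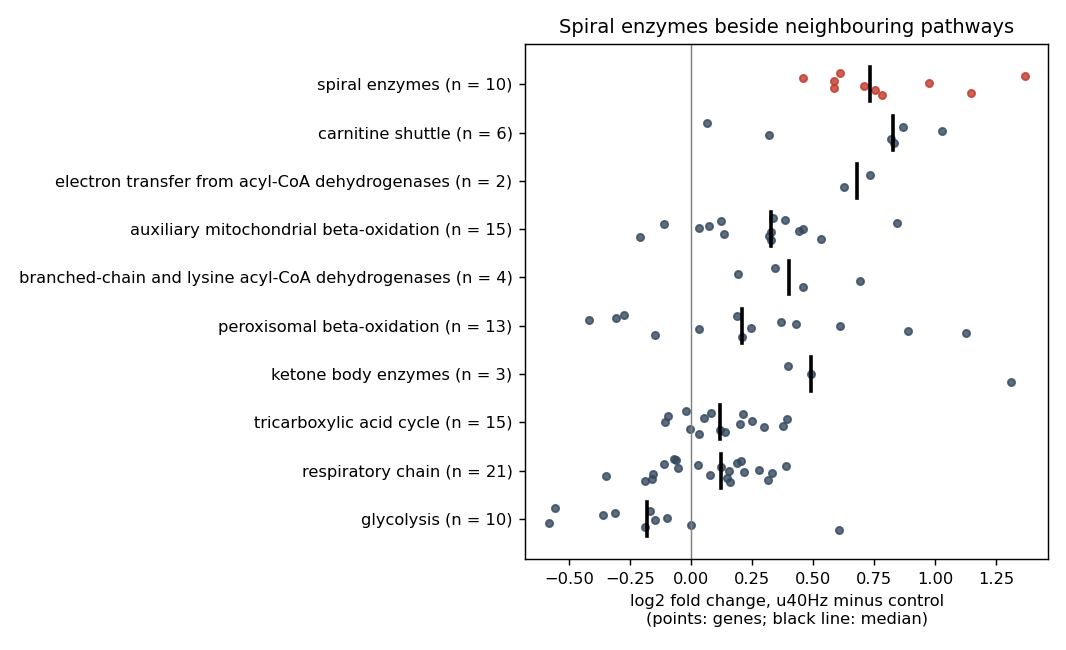
Log2 fold change (u40Hz minus control) of each measured gene of the spiral (red) and of neighbouring pathways (dark blue), with the median of each list as a black line. The medians are 0.73 for the spiral enzymes, 0.83 for the carnitine shuttle, 0.12 for the tricarboxylic acid cycle and for the respiratory chain, and -0.18 for glycolysis.

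The β-oxidation genes are known targets of the nuclear receptors PPAR and ERR with the coactivators PGC-1α and PGC-1β. Of 15 measured regulators, 9 were higher in the mean and 6 lower, and the median log2 fold change was 0.05. *Ppard* and *Esrra* were not among the 15. *Ppara*, *Pparg*, *Esrrb* and *Esrrg* were at 0.80, 1.79, 0.38 and 0.73 (unadjusted p = 0.173, 0.149, 0.258 and 0.206 from limma). *Pparg*, also in the adipocyte list, was at 11.11 in u40Hz mouse 4 and between 5.31 and 6.88 in the other mice. *Ppargc1a*, which encodes PGC-1α, was at 13.53, 13.55 and 13.70 in u40Hz mice 4, 10 and 11, against 13.56, 12.17 and 12.66 in control mice 1, 6 and 8. Control mouse 1 lay among the stimulated mice, as in every spiral enzyme, and the log2 fold change was 0.80 (SE 0.33, unadjusted p = 0.0404 and adjusted p = 0.711 from limma). *Ppargc1b* was at 0.62 (unadjusted p = 0.0651 from limma). *Rxrg*, a receptor partner, was lower in every stimulated mouse, at 10.83, 11.04 and 10.85 in u40Hz mice 4, 10 and 11, against 11.37, 12.33 and 11.79 in control mice 1, 6 and 8 (log2 fold change -0.92, SE 0.26, unadjusted p = 0.00682 and adjusted p = 0.685 from limma). *Hnf4a*, best known from liver, was at 0.63 without overlap, with signals between 3.33 and 4.29, below the median probe set.

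Among 15523 other genes whose log2 signal ranged over at least 0.5, 77 (0.496%) had a Pearson correlation above 0.95 over the 6 mice with the mean of the spiral enzymes. The 8 highest were *Hsdl2* (0.998), *Tmem245* (0.99), *Sdha* (0.99), *Slc25a20* (0.99), *Pde2a* (0.99), *Lonp1* (0.99), *Vmn2r115* (0.99) and *Mpp7* (0.99). *Hsdl2*, a dehydrogenase-like protein of peroxisomes and mitochondria, was at 14.10, 12.80 and 13.88 in u40Hz mice 4, 10 and 11, against 13.56, 11.56 and 11.90 in control mice 1, 6 and 8, the same order of mice as *Acaa2*. *Sdha* is the catalytic subunit of succinate dehydrogenase, *Lonp1* a protease of the mitochondrial matrix and *Pde2a* a cyclic nucleotide phosphodiesterase. *Vmn2r115*, a vomeronasal receptor, had signals between 3.01 and 3.99, below the median probe set. These correlations rest on 6 points each and are a description.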

How the data were processed

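RNA of the triceps muscle of 6 male SAMP-10 mice, 3 per group, was measured by the study on Affymetrix Mouse Clariom S arrays. The authors used the Transcriptome Analysis Console to normalize and summarise the scans, and deposited log2 signals with 2 decimals for 22206 probe sets. For the summary method and the genome build, nothing is given in the sources used here. The values ran from 1.43 to 19.93, with array medians from 5.53 to 5.61. All 10 enzymes lay above the median probe set (their values between 7.86 and 17.17), while 12 probe sets reached the ceiling in all mice, none of them of a spiral enzyme. The number of arrays limits the precision. Groups came from the treatment labels, and mouse numbers from the sample titles.

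By the platform annotation, 19572 probe sets have 1 symbol and 2634 have none. A gene with several probe sets was represented by that with the highest mean. All probe sets were fitted with lmFit and eBayes of limma 3.58.1 (R 4.3.3, default settings, two-sided), with Benjamini-Hochberg adjustment over all of them. Intervals are 95% intervals of that fit. The fit was tested on simulated data. The difference of the group means of each enzyme was also tested by exact permutation. The study describes each group as 3 mice, and the number in a sample title was read as the mouse number. No batch or scan date was used.

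The enzymes, the gene lists, the tests and the rule for named genes (all enzymes, up to 4 genes per list with the smallest unadjusted p, the 8 genes most like the enzymes' mean, and *Myh7*, *Adipoq* and *Ucp1*) were chosen with earlier results of these data known. *Acta1*, *Aldoa* and *Gapdh* were named after their values were seen, as were the members of lists named beyond that rule. The lists of tendon, macrophage, capillary, fast fibre and fibro-adipogenic progenitor genes are given in the closing section. Alternatives were an intensity trend or robust fit in the prior, no moderation, leaving out dim probe sets, array weights, centring on the median or quantile normalization, averaging a gene over its probe sets, the slow fibre or adipocyte mean as a covariate, and leaving out each mouse. Both covariates together, and leaving out control mouse 1 with u40Hz mouse 4, were added after seeing the data.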

Additional observations from a re-analysis of the deposited data

How the results depend on the processing

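The mean of all 10 enzymes stayed higher with u40Hz stimulation under every alternative run but one. With the slow fibre and adipocyte means together as covariates, an alternative chosen after seeing the data, *Acads*, *Echs1* and *Hadh* turned to -0.023, -0.076 and -0.18, the median log2 fold change was 0.17 and 0 of the 10 enzymes had an unadjusted p under 0.05 in limma, with 2 free of overlap after the covariates were taken away (2.51% and 19% of all probe sets). The cause was not tested, and 2 residual degrees of freedom were left in that fit. The 5 enzymes with an unadjusted p under 0.05 in limma became 0 without moderation of the variance (3.17% of all probe sets). They became 2 with the slow fibre mean (3.54%) and 0 with the adipocyte mean (3.14%) as a covariate. Without control mouse 1 and u40Hz mouse 4, a choice also made after seeing the data, the count was 8 (4.73%). The count of enzymes without overlap, 0 as deposited, became 1 after quantile normalization (5.78%), 2 with the slow fibre mean as a covariate (10.6%) and 9 without control mouse 1 and u40Hz mouse 4 (19.9%). Leaving out the mice one at a time, the number at an unadjusted p under 0.05 ran from 0 to 9, the number without overlap from 0 to 9, the median log2 fold change from 0.50 to 1.04, and the number with a higher mean stayed at 10. The trend and robust priors, median centring and averaging over probe sets changed none of these counts, and array weights and the filter on dim probe sets gave 6 (4.18%) and 4 enzymes (3.46% of the probe sets kept) at an unadjusted p under 0.05. No paired analysis was possible because the groups share no mouse number.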

Other observations

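Peroxisomal β-oxidation, which shortens very long and branched chains outside the mitochondria, did not move as one list. Of 13 measured genes, 9 were higher in the mean with u40Hz stimulation and 4 lower, and the median log2 fold change was 0.21. *Hsd17b4*, the peroxisomal multifunctional enzyme, was at 12.00, 11.09 and 11.55 in u40Hz mice 4, 10 and 11, against 10.82, 10.79 and 10.37 in control mice 1, 6 and 8, without overlap (log2 fold change 0.89, SE 0.27, unadjusted p = 0.00979 and adjusted p = 0.695 from limma). *Crot*, the carnitine octanoyltransferase of peroxisomes, ran the other way, at 11.44, 11.31 and 11.17 in u40Hz mice 4, 10 and 11, against 11.65, 11.71 and 11.82 in control mice 1, 6 and 8 (log2 fold change -0.42, SE 0.18, unadjusted p = 0.0478 and adjusted p = 0.711 from limma). *Ehhadh*, the other multifunctional enzyme, was at 9.34 in u40Hz mouse 4 and between 5.88 and 6.83 in the other 5 mice. Of 3 measured ketone body enzymes all had a higher mean, and *Bdh1*, which oxidizes hydroxybutyrate, was at 8.47, 9.22 and 10.99 in u40Hz mice 4, 10 and 11, against 10.33, 6.10 and 8.32 in control mice 1, 6 and 8 (unadjusted p = 0.224 from limma).

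Markers of other cells also differed between the mice. Of 7 capillary endothelial genes, 7 had a higher mean, with a median log2 fold change of 0.54, and *Kdr*, a receptor of vascular growth factor, was at 11.68, 11.44 and 11.79 in u40Hz mice 4, 10 and 11, against 11.40, 10.53 and 11.21 in control mice 1, 6 and 8 (log2 fold change 0.59, unadjusted p = 0.0503 from limma). Across the 6 mice the endothelial mean had a Pearson correlation of 0.93 with the mean of the spiral enzymes and the macrophage mean of -0.97. For the means of slow fibre, fast fibre, adipocyte and brown adipocyte genes it was 0.69, 0.48, 0.54 and 0.58. Skeletal muscle, tendon and fibro-adipogenic progenitor genes had 0.06, -0.37 and 0.14, all as descriptions. Of 7 macrophage genes, 6 were lower in the mean, and the median was -0.37. Of 8 tendon genes, 7 had a lower mean, all 7 at an unadjusted p under 0.05 (3.15% of all probe sets), with a median of -1.58, and of 6 fibro-adipogenic progenitor genes 5 were lower, and the median was -0.47. Of 12 fast fibre genes, 8 had a lower and 2 a higher mean, with a median of -0.22, and *Myh4* and *Atp2a1* stood at the ceiling of the scale (19.93) in all 6 mice. The higher ones were *Myh1* (by 0.22) and *Myh2* (by 1.40, unadjusted p = 0.112 from limma), which both encode myosins. *Myh2* was at 18.35, 19.09 and 19.85 in u40Hz mice 4, 10 and 11, against 19.51, 15.93 and 17.66 in control mice 1, 6 and 8. Its lowest values were thus in control mice 6 and 8, as in every spiral enzyme but *Acads*. The part of these cells in the values of the spiral enzymes was not tested.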
